A study of Mus musculus with 4 samples.

Results

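The genes described here encode the subunits of the 5 complexes of the respiratory chain and ATP synthase, and they were measured by RNA sequencing in endothelial cells of the mouse retina. They were chosen by gene symbol alone, as protein-coding genes named as subunits of complexes I to V, with the isoforms Ndufa4l2 and Cox4i2 left out. The rule matched 96 of the 54446 genes in the deposited table, of which 83 are encoded in the nucleus and 13 in the mitochondrial genome. The 96 entries carry 95 symbols, since Atp5o is listed under 2 identifiers. Of the 96, 90 had a mean of at least 1 FPKM (sequenced fragments divided by transcript length and by the library total) over the 4 libraries and could be tested, 77 nuclear and 13 mitochondrial. The 6 that did not reach it were Cox6a2, Cox7a1, Cox7b2, Cox8b, Cox8c and the second Atp5o entry.

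Each library was made from 100 endothelial cells sorted by flow cytometry from retinas of C57BL/6 mice at postnatal day 16. There were 2 control libraries and 2 libraries titled Zeb1-CKO, whose genotype field reads Zeb1 knockdown. Zeb1 encodes a zinc-finger transcription factor, and the comparison asks how retinal endothelial cells differ when it is targeted. The labels give no Cre driver, no allele and no number of animals for either genotype, and they do not say that libraries came from separate animals. The p-values given here thus cover the scatter among these 4 samples and nothing beyond it, and that scatter could be technical.

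The respiratory chain passes electrons from NADH (complex I) and succinate (complex II) through complex III and complex IV to oxygen, and the proton gradient made on the way drives ATP synthase (complex V). Most subunits are made from nuclear genes and imported, while a small set of membrane-embedded core subunits is made inside the organelle from its own genome; only complex II has no mitochondrially encoded subunit. Endothelial cells are known for making much of their ATP by glycolysis, with mitochondria also serving biosynthesis and signalling.

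Zeb1 itself was at 10.7 and 11.1 FPKM in control cells versus 8.66 and 7.07 FPKM in Zeb1-CKO cells, a log2 fold change of -0.43 with limma's adjusted p at 0.235. Both Zeb1-CKO libraries lay below both controls, by a margin that did not pass the test, and a value per gene does not show whether a deleted exon is missing. The 8 endothelial markers summed to between 3576 and 4423 FPKM. Markers of other cells were present too, with 7 pericyte and smooth-muscle markers at 1434 to 2058 FPKM and 5 red cell markers at 745 to 3298 FPKM, while the 4 skeletal muscle markers summed to at most 1.44 FPKM. The depth is not settled by the files. Low values fell on a ladder of steps, with 11.3% to 17.0% of them within 0.02 of a whole step against 4% at random. A step of 1 fragment would mean 20.5 to 33.8 M fragments, but in control 2 and Zeb1-CKO 2 a step may be only part of a fragment.

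In Zeb1-CKO cells 1 respiratory chain gene rose, the mitochondrial mt-Nd4l, and none fell, by limma on log2(FPKM + 1) with an adjusted p under 0.05. Among all 13651 genes tested, 3.13% passed the same threshold, 2.23% as higher and 0.901% as lower. The share of 1 in 90 was thus smaller than the background. mt-Nd4l has a nuclear copy identical to it over the aligned bases, and how reads were divided between gene and copy was not tested. None of the 77 nuclear genes passed, and 2 of them, Ndufs5 and Ndufb11, had an unadjusted p under 0.05, or 2.60% against 17.9% of all genes. The nuclear genes had small differences that mostly pointed one way. The log2 fold change was below 0 for 62 of 77, or 80.5% against 47.2% of all genes, with a median of -0.15 against 0.02 over all genes. Among the mitochondrial genes it was above 0 for 8 of 13, with a median of 0.10. That count of 62 rests on 1 library: without Zeb1-CKO 1 only 31 of 77 were below 0 and the median was 0.037, as described further on.

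The mitochondrially encoded genes are taken first. mt-Co1, the catalytic core of complex IV, was the most abundant, at 2722 and 4000 FPKM (controls) and 4932 and 5104 FPKM (Zeb1-CKO). Both Zeb1-CKO libraries were above both controls, with control 1 well below the other three. The log2 fold change was 0.60 (SE 0.22), with limma's adjusted p at 0.237. mt-Cytb, the cytochrome b of complex III, was at 4719 and 2834 FPKM in the 2 control libraries, against 3265 and 4014 FPKM in Zeb1-CKO. Its lowest and its highest library were both controls, and its log2 fold change was -0.015.

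The complex I genes of the mitochondrial genome spanned a wide range. mt-Nd1 was at 3664 and 2669 FPKM in control cells versus 3046 and 4336 FPKM in Zeb1-CKO cells, with overlapping groups. mt-Nd2, mt-Nd4, mt-Nd5 and mt-Nd6 lay between 318 and 993 FPKM in every library, with log2 fold changes from -0.20 for mt-Nd2 to 0.06 for mt-Nd5. All of these encode membrane-arm subunits that pump protons or line the quinone path. None of them passed, with limma's adjusted p between 0.596 and 0.953 for mt-Nd1, mt-Nd2, mt-Nd4, mt-Nd5 and mt-Nd6.

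The other 6 mitochondrial genes were listed far lower, at 0.640 to 162 FPKM against 318 to 5104 FPKM for the 7 just described, and they stand next to each other. In their order along the genome they are mt-Co2 and mt-Co3 (complex IV core subunits) with mt-Atp8 and mt-Atp6 (complex V membrane subunits) between them, followed by mt-Nd3 and mt-Nd4l (complex I). The median of their mean levels was 17.6 FPKM, against 862 FPKM for the others. The same stretch is present as a nuclear copy on chromosome 1, minus strand, where GENCODE M21 (mm10) annotates 7 unprocessed pseudogenes between 24611535 and 24616197. The copies of mt-Co2 (Gm28661), mt-Atp6 (Gm10925), mt-Co3 (Gm28437) and mt-Nd4l (Gm10222) are 100% identical to the mitochondrial transcript over their aligned bases, and that of mt-Nd3 (Gm28438) is 99.7% identical. mt-Atp8 has no annotated copy of its own, but the distance from the start of mt-Co2 to that of mt-Atp6 is 914 bases in both places, which leaves room for it. On chromosome 1 the genes at the ends of the stretch are copied only in part, mt-Co1 over 483 of 1545 bases (Gm29216) and mt-Nd4 over 876 of 1378 bases (Gm28439). Both were among the 7 with high values. Elsewhere, Gm13340 on chromosome 2 matches mt-Co1 over all 1545 bases at 97.6% identity. Further copies at 95.2% to 96.7% identity match mt-Co2 (Gm13341), mt-Nd2 (Gm13339) and mt-Nd5 (Gm4076). With the listed copies added, the levels over the 4 libraries were 18.5 to 42.7 FPKM for mt-Co2 and 21.4 to 48.4 FPKM for mt-Co3. They were 36.9 to 156 FPKM for mt-Atp6, 33.6 to 75.4 FPKM for mt-Nd3 and 10.3 to 29.1 FPKM for mt-Nd4l. All of these sums were below 318 FPKM, the lowest value of the 7 genes outside the stretch. How far the division of reads between the mitochondrial genes and their copies sets these low values was not tested.

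**Figure D1:**
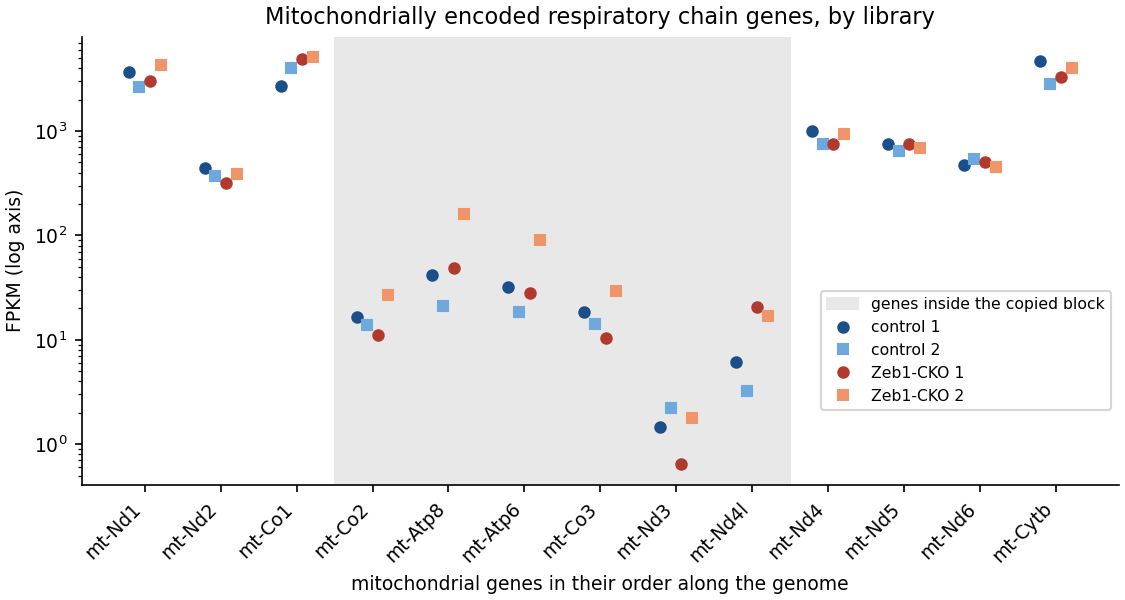
FPKM (log axis) of the 13 mitochondrially encoded genes in their order along the genome, 1 point per library. The 6 genes in the shaded stretch, which is copied on chromosome 1, lie between 0.640 and 162 FPKM, and the 7 outside it lie between 318 and 5104 FPKM. mt-Nd4l is the gene with the 2 Zeb1-CKO points well above the 2 control points.

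Within that stretch mt-Nd4l, a small complex I subunit at positions 9877 to 10173 of the mitochondrial genome, was at 6.17 and 3.27 FPKM (controls) and 20.6 and 17.0 FPKM (Zeb1-CKO). The groups were far apart, where 49.4% of all genes tested had groups that did not overlap. The log2 fold change was 1.84 (SE 0.27) with limma's adjusted p at 0.0303. Its annotated span overlaps that of mt-Nd4 by 7 bases on the same strand, and mt-Nd4 did not rise with it. mt-Nd4 was at 993 and 753 FPKM (controls) and 758 and 946 FPKM (Zeb1-CKO), a log2 fold change of -0.03. Why the 2 neighbours differ in level and direction was not tested. The level listed for mt-Nd4l, at most 20.6 FPKM against at least 753 FPKM for mt-Nd4, is thus not a settled measure of its transcript. The call ended without the filter on low values (adjusted p = 0.183), without Zeb1-CKO 1 (log2 fold change 1.70, adjusted p = 0.166) and without Zeb1-CKO 2 (1.97, adjusted p = 0.130). The copy Gm10222 (chromosome 1, 24612407 to 24612700) was at 7.26 and 7.07 FPKM in the 2 control libraries, against 8.44 and 11.3 FPKM in Zeb1-CKO. When member and copy were added, the sums were 13.4 and 10.3 FPKM against 29.1 and 28.3 FPKM, a log2 fold change of 1.22 (SE 0.16, limma's adjusted p = 0.0232). The sum was thus higher in Zeb1-CKO cells too, but it holds the gene itself, which made up 71.0% and 60.0% of it there. It is therefore not a separate test. Gm10222 alone had a log2 fold change of 0.40 and did not pass (limma's adjusted p = 0.312). The sequence is shown because no base separates the gene from its copy: the first 294 of the 297 bases of mt-Nd4l, from the GENCODE M21 transcripts and beginning at the start codon, are the whole of Gm10222, so none is in capitals.
mt-Nd4l and Gm10222: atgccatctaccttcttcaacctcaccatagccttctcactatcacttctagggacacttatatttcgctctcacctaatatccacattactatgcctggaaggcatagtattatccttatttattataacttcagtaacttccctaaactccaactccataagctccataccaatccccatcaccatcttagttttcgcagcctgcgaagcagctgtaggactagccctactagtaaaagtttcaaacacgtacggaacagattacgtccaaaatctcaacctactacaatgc

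mt-Atp8 and mt-Atp6, whose annotated spans overlap and which are read from 1 shared transcript, followed the same libraries. mt-Atp8 was at 42.2 and 21.2 FPKM in control cells versus 49.1 and 162 FPKM in Zeb1-CKO cells, and mt-Atp6 at 32.0 and 18.5 FPKM against 28.4 and 90.7 FPKM. Zeb1-CKO 2 stood above the other 3 libraries for both genes, and control 2 was the lowest. Neither passed, with log2 fold changes of 1.54 (SE 0.59, limma's adjusted p = 0.257) for mt-Atp8 and 1.03 (SE 0.55, adjusted p = 0.395) for mt-Atp6. Zeb1-CKO 2 was also the highest library for mt-Co2, at 26.7 FPKM against 11.2 to 16.5 FPKM, and for mt-Co3, at 29.2 FPKM against 10.3 to 18.5 FPKM. mt-Nd3 was the lowest of all 13, at 1.47 and 2.21 FPKM (controls) and 0.640 and 1.78 FPKM (Zeb1-CKO), while its copy Gm28438 was listed at 32.1 to 73.7 FPKM.

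Complex I is the NADH dehydrogenase, and 35 of its nuclear genes were tested. The log2 fold change was below 0 for 30 of 35, with a median of -0.18, and none passed the threshold. The 7 core genes, which bind the flavin, the iron-sulphur clusters and the quinone, and the 28 accessory genes had similar medians, -0.17 and -0.18. Of the core genes, Ndufs8, an iron-sulphur subunit, was at 132 and 104 FPKM in the 2 control libraries, against 79.1 and 121 FPKM in Zeb1-CKO. Ndufs1, which carries several iron-sulphur clusters, was at 10.8 and 9.19 FPKM against 9.74 and 11.1 FPKM. In both genes the 2 genotypes overlapped.

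Among the accessory genes the most abundant were Ndufa2, at 161 and 187 FPKM in control cells versus 122 and 200.5 FPKM in Zeb1-CKO cells, and Ndufa8, at 184 and 135 FPKM against 113 and 158 FPKM. Zeb1-CKO 1 was the lowest library for both. Ndufb11, an X-linked subunit of the membrane arm, was at 118 and 100.3 FPKM (controls) and 75.0 and 86.9 FPKM (Zeb1-CKO). Both Zeb1-CKO libraries were below both controls, with a log2 fold change of -0.43 (SE 0.15) and limma's adjusted p at 0.233. Its exons overlap Rbm10 on the opposite strand, and these libraries do not mark strand. Ndufa6, which belongs to the LYR-motif family, had the lowest log2 fold change of the complex, -0.66 (SE 0.27, limma's adjusted p = 0.288), from 25.4 and 45.4 FPKM in the 2 control libraries, against 20.7 and 21.7 FPKM in Zeb1-CKO. The gap was carried mainly by control 2, since control 1 lay close to the Zeb1-CKO libraries.

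Ndufs5, an accessory subunit on the intermembrane-space side, went the other way from most of its complex. It was at 29.1 and 32.0 FPKM in control cells versus 41.8 and 65.2 FPKM in Zeb1-CKO cells. The groups did not overlap, and the log2 fold change of 0.76 (SE 0.23) was the highest of all nuclear members, with limma's adjusted p at 0.167. This gene has a processed pseudogene, BC002163 (chromosome 16, 42955631 to 42955949, plus strand), that was measured at 73.5 and 83.2 FPKM (controls) and 3.55 and 6.13 FPKM (Zeb1-CKO). The pseudogene fell 16.2-fold, a log2 fold change of -3.80 (SE 0.24, limma's adjusted p = 0.00233), and the call was kept under each alternative run, at -4.12 to -3.47 when 1 library was left out. Ndufs5 made up 28.3% and 27.8% of the sum of gene and copy in the controls, but 92.2% and 91.4% of it in Zeb1-CKO. The sums were 103 and 115 FPKM against 45.3 and 71.3 FPKM, a log2 fold change of -0.92 (SE 0.23, limma's adjusted p = 0.111), so the direction for Ndufs5 depends on whether its copy is counted with it. The coding sequences are shown because they differ at only 2 of 319 bases, in capitals below, T81C and A105G with positions counted from 1 at the start codon, the base of Ndufs5 first. The first 300 bases of each are from the GENCODE M21 transcripts.
Ndufs5: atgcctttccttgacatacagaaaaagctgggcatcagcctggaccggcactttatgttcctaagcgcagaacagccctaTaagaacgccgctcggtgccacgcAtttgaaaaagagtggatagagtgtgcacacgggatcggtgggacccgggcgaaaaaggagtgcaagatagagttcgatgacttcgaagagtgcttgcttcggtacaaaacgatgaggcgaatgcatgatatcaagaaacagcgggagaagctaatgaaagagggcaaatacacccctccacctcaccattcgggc
BC002163: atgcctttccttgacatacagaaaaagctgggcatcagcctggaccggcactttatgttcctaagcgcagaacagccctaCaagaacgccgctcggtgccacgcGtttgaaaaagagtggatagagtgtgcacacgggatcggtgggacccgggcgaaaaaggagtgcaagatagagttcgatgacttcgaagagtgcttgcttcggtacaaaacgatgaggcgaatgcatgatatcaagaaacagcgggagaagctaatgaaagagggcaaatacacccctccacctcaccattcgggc

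Complex II, the succinate dehydrogenase shared with the citric acid cycle, was the complex with no common direction. Sdha, the flavoprotein, was at 55.2 and 54.3 FPKM in the 2 control libraries, against 60.5 and 66.2 FPKM in Zeb1-CKO, with both Zeb1-CKO libraries higher (log2 fold change 0.21, SE 0.13, limma's adjusted p = 0.469). Sdhb, the iron-sulphur subunit that binds to it, was at 97.8 and 71.8 FPKM against 59.3 and 81.3 FPKM, with overlapping groups and a log2 fold change of -0.27. The membrane anchor gene Sdhd was the most abundant of the complex, at 135 and 84.3 FPKM against 110 and 113 FPKM. The controls differed from each other more than the genotypes did. None of the 4 genes passed.

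Complex III had 8 nuclear genes, 6 of them with a log2 fold change below 0 and none past the threshold. Uqcr10, a small accessory subunit, was the most abundant at 141 and 160 FPKM in control cells versus 103 and 177 FPKM in Zeb1-CKO cells. Uqcrb, another accessory subunit, was at 137 and 133 FPKM against 107 and 129 FPKM, with both Zeb1-CKO libraries below both controls by a small margin. Uqcrh, the acidic hinge protein, was at 90.4 and 85.2 FPKM against 63.3 and 83.8 FPKM, a log2 fold change of -0.27. Uqcrfs1, the Rieske iron-sulphur protein, was the 1 gene with both Zeb1-CKO libraries above both controls, at 114 and 104 FPKM against 115 and 122 FPKM. Cyc1, the cytochrome c1 of this complex, has a symbol outside the naming rule; it was at 62.3 and 60.3 FPKM (controls) and 51.1 and 80.1 FPKM (Zeb1-CKO).

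Complex IV, cytochrome c oxidase, held the most abundant nuclear gene. Cox6a1 was at 450.4 and 394 FPKM in the 2 control libraries, against 315 and 435 FPKM in Zeb1-CKO, and Cox8a, the smallest subunit, at 310.5 and 313 FPKM against 236 and 287 FPKM. Zeb1-CKO 1 was the lowest library for both, and for Cox8a both Zeb1-CKO libraries were below both controls. All 13 tested genes of the complex had a log2 fold change below 0, from -0.56 for Cox6b2 to -0.08 for Cox7b, with a median of -0.16, and none passed. Without Zeb1-CKO 1 the direction over the nuclear genes as a whole was lost, as given below. Cox7a2l was at 221 and 201 FPKM in control cells versus 202 and 181 FPKM in Zeb1-CKO cells, with overlapping groups.

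Of the complex IV genes with tissue isoforms, the Cox6a, Cox6b, Cox7a, Cox7b and Cox8 genes were almost wholly of the ubiquitous kind. The heart and muscle isoform genes Cox6a2, Cox7a1 and Cox8b were at 0 to 0.461, 0.530 to 0.993 and 0 to 0.0706 FPKM, against 315 to 450.4 FPKM for Cox6a1, 79.3 to 110 FPKM for Cox7a2 and 236 to 313 FPKM for Cox8a. The testis isoforms Cox7b2 and Cox8c were listed at 0 in all 4 libraries, and Cox6b2, also known from testis, was at 2.38 and 2.31 FPKM (controls) and 1.73 and 0.883 FPKM (Zeb1-CKO). Its log2 fold change of -0.56 (SE 0.24, limma's adjusted p = 0.300) came from a level close to the filter. Cox6b1, the ubiquitous partner, was at 275 and 265 FPKM against 193 and 284 FPKM, and Cox7b was at 47.9 and 51.1 FPKM against 40.3 and 54.5 FPKM.

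Isoforms known to be favoured in low oxygen were a larger share. Cox4i2 was at 69.5 and 47.3 FPKM in the 2 control libraries, against 40.5 and 50.2 FPKM in Zeb1-CKO, or 16.8% to 26.2% of its sum with Cox4i1, which was at 196 and 182 FPKM against 124 and 248 FPKM. Ndufa4l2, which is also known as a pericyte-enriched gene, was at 154 and 79.2 FPKM in control cells versus 96.8 and 108 FPKM in Zeb1-CKO cells. It made up 50.3% to 74.4% of its sum with Ndufa4, a complex IV subunit at 53.0 and 78.2 FPKM against 39.4 and 58.1 FPKM. In both pairs the 2 genotypes overlapped, and limma's adjusted p was 0.487 for Cox4i2 and 0.890 for Ndufa4l2. Pericyte and smooth-muscle markers were present beside these genes, with all 7 markers lower in both Zeb1-CKO libraries than in both controls, against 22.3% of all genes tested. Of the 7 markers 1 fell by limma's test, Tagln, a smooth-muscle actin-binding protein gene, at a log2 fold change of -0.85 (adjusted p = 0.0429). Their summed level was 2058 and 1681 FPKM (controls) and 1434 and 1529 FPKM (Zeb1-CKO), mostly Rgs5. Their part in these isoform levels was not tested, and in bulk samples fewer cells of a type and less RNA per cell cannot be told apart.

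Complex V is described by its parts. Of the 5 genes of the catalytic F1 head and central stalk, 3 had a log2 fold change above 0 and 2 below, with a median of 0.038. The large subunit gene Atp5b was at 205 and 206 FPKM in the 2 control libraries, against 237 and 248 FPKM in Zeb1-CKO, and Atp5a1 at 163 and 170.5 FPKM against 185 and 178 FPKM. In both genes each Zeb1-CKO library exceeded each control, with log2 fold changes of 0.24 (SE 0.13, limma's adjusted p = 0.392) and 0.12 (SE 0.13, adjusted p = 0.678). Atp5c1, the central stalk subunit gamma, was at 146 and 136 FPKM against 124 and 116 FPKM, lower in both Zeb1-CKO libraries. The 4 tested genes of the peripheral stalk and the 3 genes of the proton-carrying c-ring all had log2 fold changes below 0, with medians of -0.22 in each set, and the 4 genes of the membrane part had 2 above and 2 below (median -0.0099). Atp5h, a peripheral stalk subunit, had the lowest of the complex, at 111.5 and 104 FPKM in control cells versus 69.0 and 92.2 FPKM in Zeb1-CKO cells (log2 fold change -0.43, SE 0.18, limma's adjusted p = 0.286). Atp5s, an associated factor and not a core subunit, had the highest, at 4.53 and 4.46 FPKM against 4.90 and 6.62 FPKM (0.29, SE 0.18, adjusted p = 0.469). None of the 17 tested genes passed, and 11 of them had a log2 fold change below 0.

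**Figure D2:**
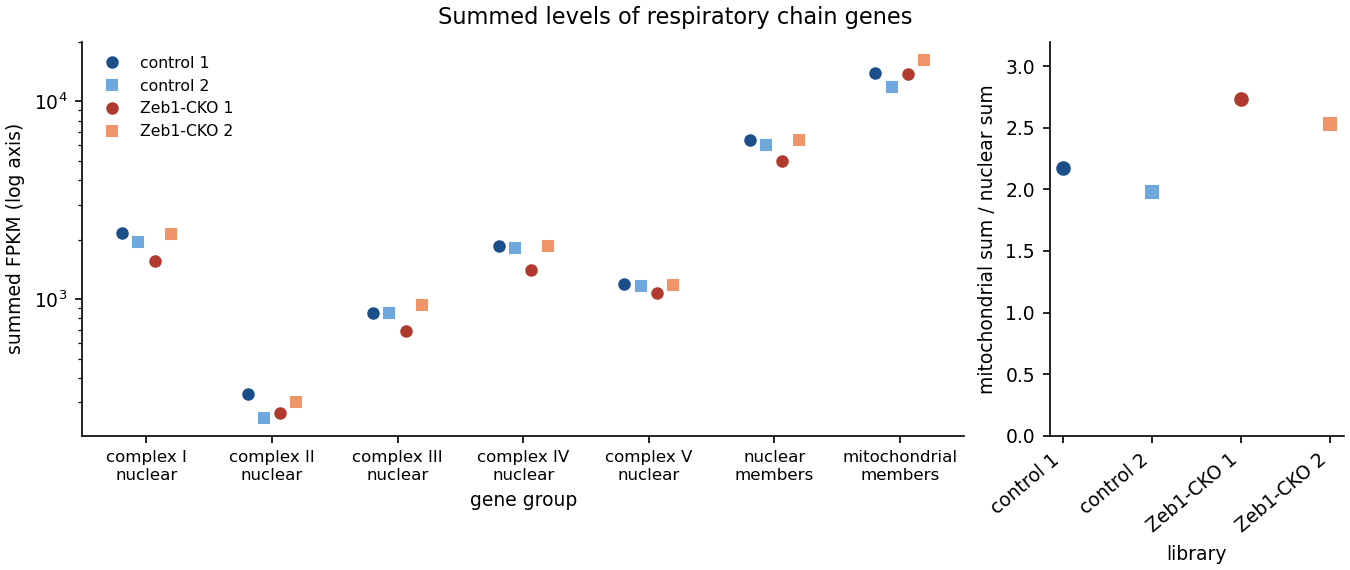
Left, FPKM summed over the nuclear genes of each complex, all nuclear genes and all mitochondrial genes (log axis), 1 point per library. Right, the ratio of the mitochondrial to the nuclear sum, at 2.17 and 1.98 for the controls against 2.74 and 2.54 for Zeb1-CKO; the Zeb1-CKO 1 point is the lowest for the nuclear sum, and both Zeb1-CKO ratios lie above both control ratios, which ends when mt-Co1 is left out.

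Summed over all 83 nuclear genes the level was 6384 and 6014 FPKM (controls) and 5004 and 6411 FPKM (Zeb1-CKO). Zeb1-CKO 1 was low and the other 3 libraries were close, and the log2 difference was -0.13, or 0.049 without Zeb1-CKO 1. Summed over the 13 mitochondrial genes it was 13872 and 11881 FPKM against 13696 and 16255 FPKM, a log2 difference of 0.22 that ranged from 0.093 without Zeb1-CKO 2 to 0.34 without Zeb1-CKO 1. It was 0.37 as the mean of log2(FPKM + 1) over the genes, which gives the low genes equal weight, and 0.077 without mt-Co1. Over all 37 genes listed on the mitochondrial chromosome the log2 difference was 0.078. The ribosomal RNA gene mt-Rnr1 was lower in both Zeb1-CKO libraries, at 1602 and 1162 FPKM against 1016 and 724 FPKM (log2 fold change -0.67, SE 0.24, limma's adjusted p = 0.231). In the mitochondrial sum the genotypes overlapped. The ratio of the mitochondrial to the nuclear sum within a library was 2.17 and 1.98 for the controls against 2.74 and 2.54 for Zeb1-CKO. Here the groups did not overlap, with a log2 difference of 0.35 that ranged from 0.28 to 0.42 when 1 library was left out. The exact permutation test gave p = 0.333 (two-sided, n = 2 per genotype), which is the smallest p that 2 against 2 libraries allow, so the difference cannot pass 0.05 by design. The separation rests on mt-Co1: with this gene left out of the mitochondrial sum the ratio was 1.75 and 1.31 against 1.75 and 1.74, a log2 difference of 0.21, and Zeb1-CKO 2 lay just below control 1. Leaving out any of the other 12 mitochondrial genes in turn kept the groups apart, and so did leaving out all 6 of the copied stretch, at 2.15 and 1.96 against 2.71 and 2.48. Zeb1-CKO 1 had the lowest nuclear sum of the 4 libraries and Zeb1-CKO 2 the highest mitochondrial sum.

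Low values of Zeb1-CKO 1 were found in most nuclear genes. That library was the lowest of the 4 libraries for 53 of 77, or 68.8% against 25.5% of all genes tested, and control 1 was the highest for 39, or 50.6% against 24.4%. Relative to the mean of the 4 libraries on the log2(FPKM + 1) scale, the median nuclear gene was at 0.13 in control 1, 0.014 in control 2, -0.24 in Zeb1-CKO 1 and 0.11 in Zeb1-CKO 2. The medians over all genes tested were between -0.021 and 0.041. Other genes with short transcripts were also low in Zeb1-CKO 1, as given with transcript length below. Zeb1-CKO 1 was the low library in complexes I, III, IV and V, at medians of -0.32, -0.28, -0.25 and -0.16, while in complex II it was level with control 2 at -0.10. Both Zeb1-CKO libraries were below both controls for 16 of 77 genes, or 20.8% against 22.3% of all genes, and above both for 6, or 7.79% against 27.1%. The count of genes with both libraries lower was thus near the background, and only the count with both higher was far from it. Leaving out Zeb1-CKO 2 in place of Zeb1-CKO 1 gave 70 of 77 below 0, with a median of -0.31.

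**Figure D3:**
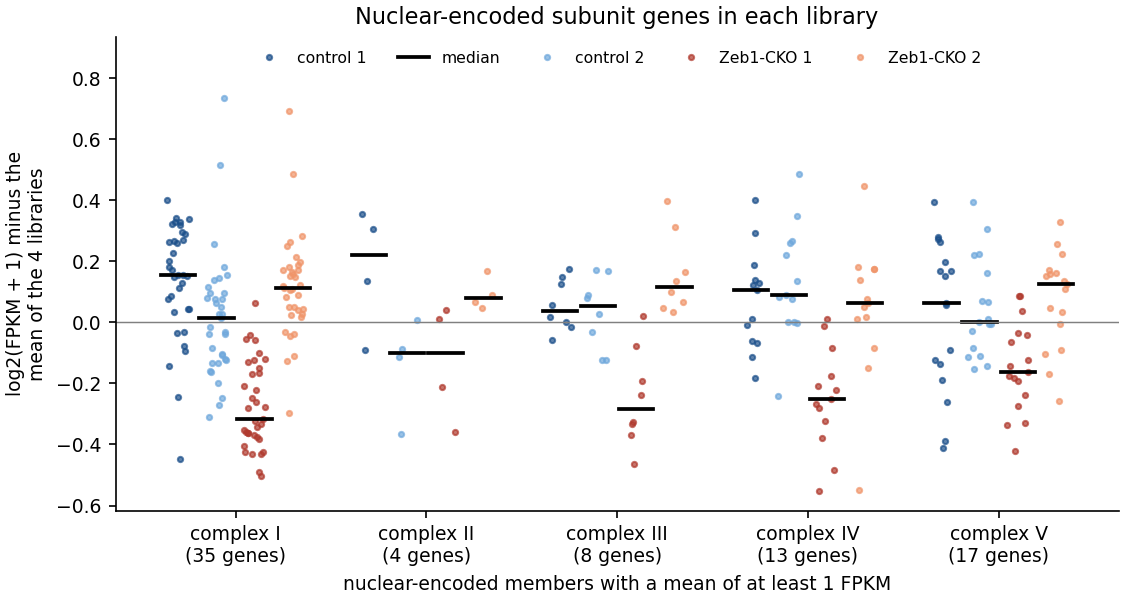
Each of the 77 tested nuclear genes in each library, as log2(FPKM + 1) minus the mean of the 4 libraries, by complex; black bars are medians. The Zeb1-CKO 1 points sit low in complexes I, III, IV and V, with medians from -0.32 to -0.16, while Zeb1-CKO 2 lies above 0 in each complex.

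Transcript length moved with these differences. Nuclear respiratory chain genes have short transcripts, with a median of 745 bases against 2386 bases for the other genes tested. Of the 51 members under 1000 bases 44 had a log2 fold change below 0, with a median of -0.18, and of the 26 longer ones 18 did, with a median of -0.064. Other genes of the same lengths went the same way by less. Their median log2 fold change was -0.13 under 500 bases, -0.11 from 500 to 750 bases and -0.035 from 750 to 1000 bases, and between 0.026 and 0.071 in the classes above. The members at these lengths had medians of -0.18, -0.17 and -0.24. The other genes are of any gene type and were matched on length alone, not on level. The median nuclear member was at 57.0 FPKM, against 5.49 FPKM for all genes tested. By library, the median other gene of these 3 classes was at -0.084, -0.11 and -0.091 in Zeb1-CKO 1 relative to the mean of the 4 libraries, and at -0.016, 0.072 and 0.086 in control 1. In control 2 it was at 0.19, 0.034 and -0.052, so under 500 bases control 2 was the library furthest from the mean. Short transcripts outside the respiratory chain were thus low in Zeb1-CKO 1 too, by less than the members, but in the shortest class control 2 was high as well. Spearman's correlation of length with log2 fold change was 0.30 across the 77 members and 0.063 across the 13571 other genes with a length; both are across genes of the same 4 libraries, which are not independent replicates. Of the 6 members with both Zeb1-CKO libraries above both controls, Sdha, Uqcrfs1, Atp5b, Atp5a1 and Atp5s are over 1000 bases long and Ndufs5 has 599 bases. The part of length in the members' differences was not tested.

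**Figure D4:**
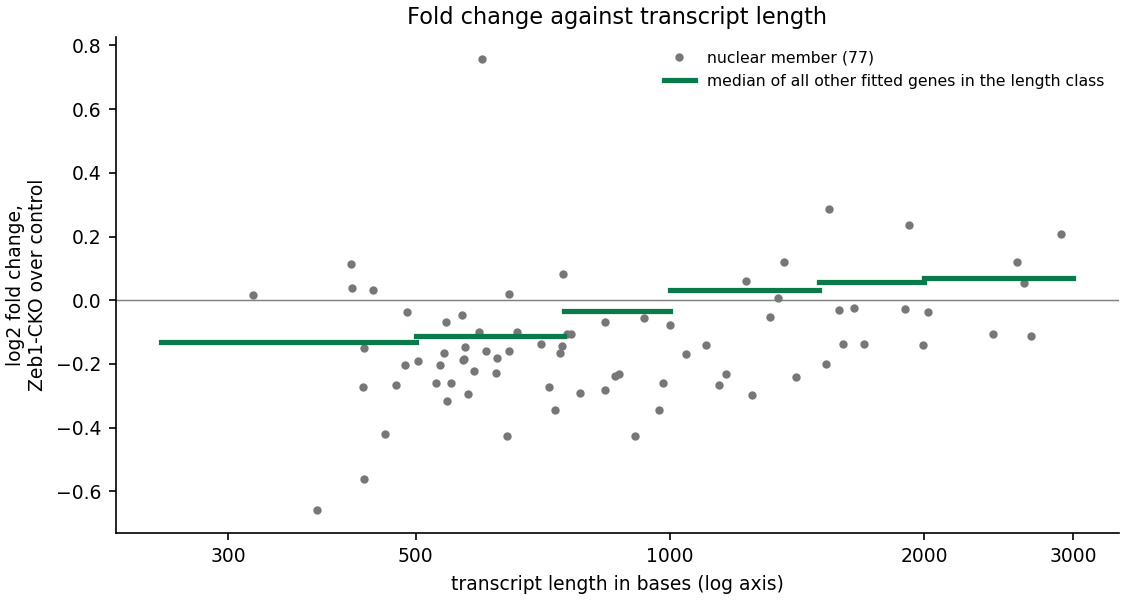
Log2 fold change (Zeb1-CKO over control) of the 77 tested nuclear genes against transcript length in bases (log axis). Green bars are the medians of all other tested genes in each length class up to 3000 bases, from -0.13 in the shortest to 0.071 in the longest drawn; most short members lie below 0 and the highest point is Ndufs5.

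Marker genes of other retinal cells did not rank the libraries in 1 order. Photoreceptor markers, 8 genes with 7 tested, summed to 80.01 and 9.02 FPKM in the 2 control libraries, against 38.9 and 45.2 FPKM in Zeb1-CKO, with Arr3 at 0 in at least 1 library. Red cell markers summed to 2727 and 3298 FPKM in control cells versus 745 and 1409 FPKM in Zeb1-CKO cells. All 5 genes were lower in both Zeb1-CKO libraries than in both controls, against 22.3% of all genes tested. Microglial markers, 7 genes with 5 tested, summed to 14.7 and 56.3 FPKM against 7.37 and 8.26 FPKM. Those of Muller glia and astrocytes were between 279 and 326 FPKM, and those of inner retinal neurons between 5.62 and 11.4 FPKM. Zeb1-CKO 1 had the lowest sum for pericyte, red cell and microglial markers, and the part of these cells in its low nuclear values was not tested.

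Near-identical copies were common among the nuclear genes. Of them 20 have at least 1 gene elsewhere that matches at 95% identity or more, 37 copies in all, of which 22 reached the mean of 1 FPKM. Of these 22 copies 3 fell, BC002163 and 2 more, while 0.901% of all genes tested were called lower. Gm11273, a single-exon copy of Cox5b on chromosome 13 (21501029 to 21501418, minus strand) that GENCODE M21 lists as protein-coding, fell from 53.6 and 44.3 FPKM to 20.3 and 23.9 FPKM, a log2 fold change of -1.11 (SE 0.16, limma's adjusted p = 0.0298). Gm5436, a copy of Atp5o on chromosome 12, fell from 9.92 and 8.26 FPKM to 3.16 and 4.34 FPKM (-1.09, SE 0.19, adjusted p = 0.0467). These 2 calls are frail. That of Gm11273 ended without control 1, without Zeb1-CKO 1 and without Zeb1-CKO 2, with adjusted p up to 0.154, and that of Gm5436 ended whichever library was left out, at adjusted p of 0.0717 to 0.192. With the replicate number as a block both also ended, at adjusted p of 0.0886 and 0.102, and without the filter on low values at 0.150 and 0.217.

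The genes these copies came from showed no such fall. Cox5b, a zinc-binding subunit of complex IV, was at 52.7 and 68.6 FPKM (controls) and 48.9 and 60.3 FPKM (Zeb1-CKO), with overlapping groups. It made up 49.6% and 60.8% of the sum with Gm11273 in the controls, against 70.7% and 71.6% in Zeb1-CKO, and the sum had a log2 fold change of -0.52 (SE 0.15, limma's adjusted p = 0.156). Atp5o, the stalk subunit that links the F1 head to the membrane part, was at 112 and 78.6 FPKM against 67.4 and 87.7 FPKM. Ndufa12, a complex I accessory gene, was at 38.2 and 25.5 FPKM against 24.0 and 36.8 FPKM, and its copy Gm15920 on chromosome 5 was at 49.3 and 42.7 FPKM against 25.6 and 28.0 FPKM (log2 fold change -0.76, SE 0.14, adjusted p = 0.0575). Gene and copy differ at 3 of 390 aligned bases for Cox5b, 2 of 402 for Ndufa12 and 19 of 643 for Atp5o. The aligned bases are part of transcripts of 865, 1110 and 838 bases. Where a read holds none of the differences, whether it belongs to the gene or to the copy is uncertain. How the reads of these pairs were divided was not tested. The Cox5b pair is printed since it differs at 3 of 390 coding bases, in capitals: C114T, A213G and G243A, counted from 1 at the start codon, the base of Cox5b first. The first 300 bases of each are shown (GENCODE M21).
Cox5b: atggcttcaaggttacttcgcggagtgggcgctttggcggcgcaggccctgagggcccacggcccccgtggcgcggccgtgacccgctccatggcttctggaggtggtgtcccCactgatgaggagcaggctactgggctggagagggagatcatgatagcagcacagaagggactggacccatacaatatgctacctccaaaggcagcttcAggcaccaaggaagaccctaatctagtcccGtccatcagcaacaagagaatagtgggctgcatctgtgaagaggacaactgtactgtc
Gm11273: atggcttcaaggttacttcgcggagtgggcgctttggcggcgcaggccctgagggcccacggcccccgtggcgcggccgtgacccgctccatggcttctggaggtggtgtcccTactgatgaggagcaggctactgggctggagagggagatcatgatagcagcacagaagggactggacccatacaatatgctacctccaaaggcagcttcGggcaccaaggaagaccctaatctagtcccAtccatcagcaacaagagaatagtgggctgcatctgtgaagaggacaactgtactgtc

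**Figure D5:**
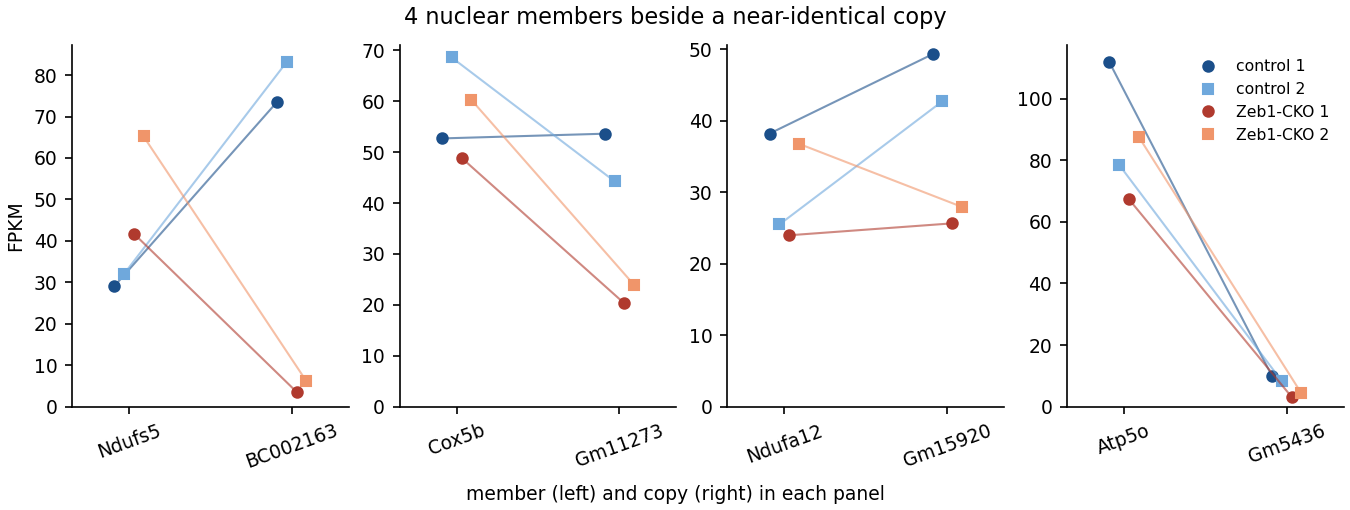
FPKM of 4 nuclear genes (left in each panel) and a near-identical copy (right), 1 line per library. For Ndufs5 the lines cross, since the gene is higher and BC002163 lower in Zeb1-CKO libraries (3.55 and 6.13 FPKM against 73.5 and 83.2 FPKM); for Cox5b, Ndufa12 and Atp5o the copy is lower in both Zeb1-CKO libraries and the gene overlaps between genotypes.

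Genes that assemble, feed or maintain the chain were read from lists chosen by function, and none of their members passed limma's threshold. Among 15 assembly factors of complex I, 6 had a log2 fold change above 0 and 9 below, with a median of -0.029; the most abundant were Ndufaf8, at 20.5 and 18.6 FPKM in the 2 control libraries, against 12.9 and 21.8 FPKM in Zeb1-CKO, and Ndufaf3. Of 21 assembly factors of complex IV, 11 were above 0 and 10 below, with Coa3 at 60.9 and 38.1 FPKM against 33.2 and 51.3 FPKM. For complex V, 3 of 4 factors were above 0, Tmem70 among them, and Atpif1 was below 0 (log2 fold change -0.25). Tmem70, which is needed for ATP synthase assembly, was at 11.1 and 15.0 FPKM against 22.0 and 20.96 FPKM. Atpif1, the inhibitor of ATP hydrolysis, was at 94.4 and 89.5 FPKM against 64.3 and 92.6 FPKM. Tmem70 was 1 of the 2 most abundant factors in its list, which was chosen with earlier results of these data known. Its log2 fold change of 0.69 had a limma adjusted p of 0.117. Ndufab1, the acyl carrier protein in complex I whose symbol falls outside the naming rule, was at 9.43 and 6.04 FPKM against 6.93 and 8.58 FPKM.

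Other mitochondrial lists differed in direction. In the citric acid cycle 13 of 16 genes had a log2 fold change above 0, with a median of 0.11; the most abundant were Mdh2, malate dehydrogenase, at 75.9 and 62.9 FPKM in control cells versus 67.6 and 74.0 FPKM in Zeb1-CKO cells, and Pdha1, of pyruvate dehydrogenase, at 53.6 and 48.9 FPKM against 60.2 and 57.7 FPKM. Of 16 genes of organelle content (carriers, pores and import) 15 were above 0, with a median of 0.19, led in abundance by the ADP/ATP carrier Slc25a5 at 378 and 321 FPKM against 362 and 428 FPKM. Genes of mitochondrial DNA upkeep and transcription were above 0 in 15 of 19, with a median of 0.15, and regulators of biogenesis in 7 of 10, with a median of 0.11. The mitochondrial ribosome had 36 of 79 above 0 and a median of -0.0068, electron carriers and entry enzymes 7 of 16 and -0.040, and uncoupling and antioxidant genes 3 of 7 and -0.075. No difference between these lists and the nuclear subunits was tested. Over all genes tested the median was 0.02 and 52.8% were above 0. The median transcript was 2518 bases in the citric acid cycle list, 2707 bases in the upkeep list and 1226 bases in the mitochondrial ribosome list.

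Promoters of the nuclear genes were searched for 3 motifs known from respiratory genes, those of NRF1, the ETS family (to which GABP belongs) and YY1. RefSeq promoters (GRCm38.p6, 250 bases before to 50 after the start) were on hand for 63 of the 77 tested genes. The palindromic NRF1 motif, searched like the others on both strands, was in 17 of them (27.0%), against 14.3% of 8848 other tested protein-coding genes. The ETS letters CCGGAAG were in 15 (23.8% against 19.1%) and the YY1 letters AAGATGGC in 8 (12.7% against 4.89%). At least 1 of the 3 was in 35 of 63 (55.6%), against 33.6% of the other tested genes and 22.0% of all 16507 protein-coding promoters. No motif contains another, and a match describes the sequence only. The 150 bases before the start are shown for Cox6a1, the most abundant nuclear gene, and for Ndufs5, the gene with the highest log2 fold change, to show where matches lie; capitals mark the NRF1 motif in both and the reverse complement of the ETS letters near the end of the first. Cox6a1 is from chr5:115348959-115349108 and Ndufs5 from chr4:123718187-123718336, both on the minus strand of GRCm38.p6.
Cox6a1: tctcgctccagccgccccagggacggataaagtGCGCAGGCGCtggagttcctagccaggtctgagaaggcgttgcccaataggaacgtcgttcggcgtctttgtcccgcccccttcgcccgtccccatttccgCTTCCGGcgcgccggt
Ndufs5 promoter: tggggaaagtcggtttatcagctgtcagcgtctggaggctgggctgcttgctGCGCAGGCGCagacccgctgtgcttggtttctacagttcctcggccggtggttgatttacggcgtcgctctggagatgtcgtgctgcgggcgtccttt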

How the data were processed

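RNA from 4 libraries was sequenced in pairs of 150-base reads after SMART-Seq v4 amplification of 100 sorted cells, per the labels' protocols. The submitters' processing notes name Trimmomatic 0.36, HISAT2 2.1.0, StringTie 1.3.3 and build mm10; their settings are not given in the sources. The deposited values are FPKM per gene, as made by the authors; the unit was inferred from the values and from StringTie's output. FPKM are scaled to the library total and to transcript length. How reads shared by near-identical transcripts were divided is not given in the sources. Reads carry no molecular identifiers, so depth overstates independent molecules.

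All 54446 genes were taken, and the 13651 with a mean of at least 1 FPKM were fitted with limma 3.58.1 (R 4.3.3), using log2(FPKM + 1) and an intensity trend, genotype as the only term, and Benjamini-Hochberg adjustment over all of them. The +1 understates the change of low genes. Summed levels were compared by exact permutation over the 4 libraries. The members and lists were chosen with earlier results of these data known. Genes named are Zeb1, called members, all mitochondrial members and the tissue isoforms. In each complex they are the 2 most abundant nuclear members and those with the highest and lowest log2 fold change. Of each pathway list they are the 2 most abundant, which takes in Tmem70 and Cyc1. The copies, Ndufb11, Ndufs8, Ndufs1, Ndufa4, Ndufa12, Cox5b, Atp5o, Atp5c1, Ndufab1, Tagln and mt-Rnr1 were named after their values were seen. Not every pathway gene the rule takes is printed. Near-identical copies came from BLAST 2.17.0 on GENCODE M21 transcripts (95% identity or more, over 80% or more of the shorter or longer transcript and 200 bases, outside the member's own span). Spans matched for 90 of 96 entries. The limma script was tested on simulated data. Alternatives were pseudocounts, filters, scalings, the variance model, a replicate block and each library left out; figures used matplotlib 3.10.9.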

Additional observations from a re-analysis of the deposited data

How the results depend on the processing

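With 2 libraries per genotype, calls depended on each library. The 427 genes called among all genes became 85 without the filter on low values, 257 at a mean of at least 5 FPKM and 66 to 302 when 1 library was left out. The 1 respiratory chain gene called, mt-Nd4l, was lost without the filter (0 called), and 0 to 1 were called when 1 library was left out. When 1 library was left out, the log2 difference of the nuclear sum ranged from -0.308 to 0.049, the median log2 fold change of the nuclear members from -0.315 to 0.037, and the count of them below 0 from 31 to 70. Each of these 3 turned or was lost without Zeb1-CKO 1; the fits that leave out a library have fewer samples, and the cause was otherwise not tested. With the replicate number as a block, 193 genes were called in all and 1 of them was a member; same-numbered libraries did not deviate together (correlation of -0.118 over 13651 genes, 1 pair per genotype), so the numbers were not taken as pairs. Crossing the pairing gave 455 genes in all and 2 members, mt-Nd4l and mt-Atp8. The crossed pairing, the fits with copies added, the sums without mt-Co1 or without the copied stretch, the 2 counts over nuclear members and the settings for the copies and for genes named outside the rule were chosen after seeing the data. Under the scalings, pseudocounts and variance model tried, 1 member was called each time. The sums were recomputed under 2 scalings only, at -0.156 to -0.089 for the nuclear and 0.190 to 0.257 for the mitochondrial sum; their ratio within a library cannot change with a scaling. As means of log2(FPKM + 1) over members, the mitochondrial difference was 0.374 and that of the ratio 0.502. Without mt-Co1 they were 0.077 and 0.206. Low genes are limited by a depth that the files do not settle.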

Other observations

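Electron carriers and entry enzymes, which hand electrons to the chain from fat and other fuels, were tested for 16 genes, of which 7 had a log2 fold change above 0 and none passed. Etfb, of the electron transfer flavoprotein, was at 85.4 and 80.8 FPKM in control cells versus 62.5 and 93.2 FPKM in Zeb1-CKO cells, with Zeb1-CKO 1 again the lowest. Among 7 tested genes of uncoupling and antioxidant defence, Gpx4, which reduces lipid peroxides, was the most abundant at 163 and 128 FPKM against 117 and 148 FPKM. Cat, which encodes catalase, was at 109 and 103 FPKM (controls) and 69.3 and 72.0 FPKM (Zeb1-CKO), with no overlap, a log2 fold change of -0.58 (SE 0.13) and limma's adjusted p at 0.0774.

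Of 8 genes of the switch from respiration to glycolysis in low oxygen, 5 had a log2 fold change above 0 and none passed. The glucose transporter gene Slc2a1 was the most abundant, at 808 and 892 FPKM in the 2 control libraries, against 729 and 713 FPKM in Zeb1-CKO. Ldha, of lactate dehydrogenase, was at 223 and 186 FPKM against 233 and 294 FPKM, with both Zeb1-CKO libraries higher (log2 fold change 0.36, SE 0.18, limma's adjusted p = 0.355).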
